A study of Mus musculus with 2 samples.

Results

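The L4/5 IT neurons were the 171 nuclei that the deposited table for the neuron subset assigned to the subclass L4/5 IT CTX, of 2580 nuclei in that subset and 8171 nuclei with a label in all. Single-nucleus RNA-seq was performed in Atf3-CreER::Sun1-sfGFP mice, on cortex ipsilateral to a mild traumatic brain injury (mTBI), with nuclei sorted as GFP+ and DRAQ5+ before capture on the Chromium platform. There were 2 libraries, 1 of male and 1 of female mice, each a pool of 4 animals. All animals carried 1 copy of Atf3-CreER and 1 copy of the Sun1-sfGFP reporter, were over 7 weeks old, received tamoxifen on days 4 and 5 after injury and were collected at 7 days post-injury (dpi). Both libraries came from injured mice, so every value below describes injured cortex, and every nucleus had passed a gate for cells in which the Atf3 promoter drove Cre around the time of tamoxifen. The question addressed here is how the L4/5 IT nuclei differed from the superficial L2/3 IT CTX-1 nuclei (360 male and 252 female) and from the deep L5 PT CTX nuclei (352 male and 290 female) captured in the same libraries.

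Intratelencephalic (IT) neurons are glutamatergic neurons whose axons stay within the telencephalon, reaching other cortical areas and the striatum. Those at the border of layers 4 and 5 receive thalamic input and pass it within the cortical column, while pyramidal tract (PT) neurons of layer 5 send axons to subcortical targets such as the brainstem and spinal cord. Rorb encodes RORβ, a nuclear receptor that takes part in specifying layer 4 neurons and is widely used to mark layers 4 and 5 IT cells. Atf3 encodes a stress-induced transcription factor of the ATF/CREB family that is switched on in injured neurons.

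The L4/5 IT nuclei made up 7.26% of the neuron subset in the male library (100 of 1378 nuclei, exact 95% interval 5.94 to 8.76%) and 5.91% in the female library (71 of 1202, 4.64 to 7.39%), a mean of 6.58% ± 0.955 (SD, n = 2). The intervals of the libraries overlapped. L4/5 IT nuclei held 516849 male and 710145 female UMIs, with a median of 4479 and 9794 UMIs per nucleus, so the female values rest on deeper nuclei. The libraries as a whole held 11007366 and 23202343 UMIs in called barcodes, and shared 1 barcode. The library titled F is taken as female, although its sex field reads male. Library and sex cannot be told apart, and n = 2 pools is the number behind each test. A second deposited label, made over all nuclei, also named 122 of the 171 nuclei L4/5 IT CTX, while it placed 29 of them in L2/3 IT CTX-2 and 10 in L2/3 IT CTX-1. The sum over the microglia marker list was 315 and 898 counts per 1000000 UMIs (CPM) in L4/5 IT nuclei, 501 and 871 in L2/3 IT CTX-1 nuclei, 550 and 851 in L5 PT CTX nuclei and 5367 and 5138 in microglia. The part of free microglial RNA in the results was not tested.

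Rorb set the L4/5 IT nuclei apart from every other neuronal subclass. Rorb (ENSMUSG00000036192, GRCm38 chr19:18930605-19111196, minus strand, protein-coding) was at 370 CPM in male and 355 CPM in female L4/5 IT nuclei. It was at 72.2 and 50.3 CPM in L2/3 IT CTX-1 nuclei and at 31.8 and 35.6 CPM in L5 PT CTX nuclei. The L4/5 IT values did not overlap with those of any of the 10 other subclasses, the next of which were Sst at 113 and 121 CPM, Vip at 154 and 61.1 CPM and L5 IT CTX at 77.2 and 86.0 CPM. Sst and Vip, which followed each other in the order, overlapped between libraries. At the low end, L6 CT CTX nuclei held 0 and 6.73 CPM of Rorb. In the edgeR quasi-likelihood fit the log2 difference of Rorb was 2.63 ± 0.24 (approximate SE) against L2/3 IT CTX-1 (adjusted p = 8.81e-08) and 3.43 ± 0.25 against L5 PT CTX (adjusted p = 4.42e-10). Since the subclass labels were assigned from these same counts, tests of identity genes describe the labels and are not independent of them.

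At least 1 Rorb UMI was found in 54% of male L4/5 IT nuclei (exact 95% interval 43.7 to 64.0%) and in 63.4% of female ones (51.1 to 74.5%). The share was 20.6% and 22.2% in L2/3 IT CTX-1 nuclei, 10.8% and 19.7% in L5 PT CTX nuclei, and 1.95% and 4.19% in microglia, which should lack the transcript. After each nucleus was thinned to 2000 UMIs, leaving out 13 male and 1 female shallower L4/5 IT nuclei, the share was 34.5% and 35.7% in L4/5 IT nuclei against 11.7% and 10.1%, 3.89% and 5.65%, and 1.92% and 3.09% in the same order. Thinning also left out 79 and 14 L2/3 IT CTX-1 nuclei, 69 and 7 L5 PT CTX nuclei and 1378 and 431 microglia. The thinned microglial share is thus of the deeper microglia only. Intervals here cover counting error only. The 5 genes whose levels followed Rorb most closely over the 22 sums of 11 subclasses and 2 libraries, among 2798 genes compared, were Il34, Pparg, Srgap3, Myo16 and Trpc5, with Pearson's r of 0.824, 0.808, 0.765, 0.752 and 0.695. These sums share libraries, and the correlations are a description.

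**Figure D1:**
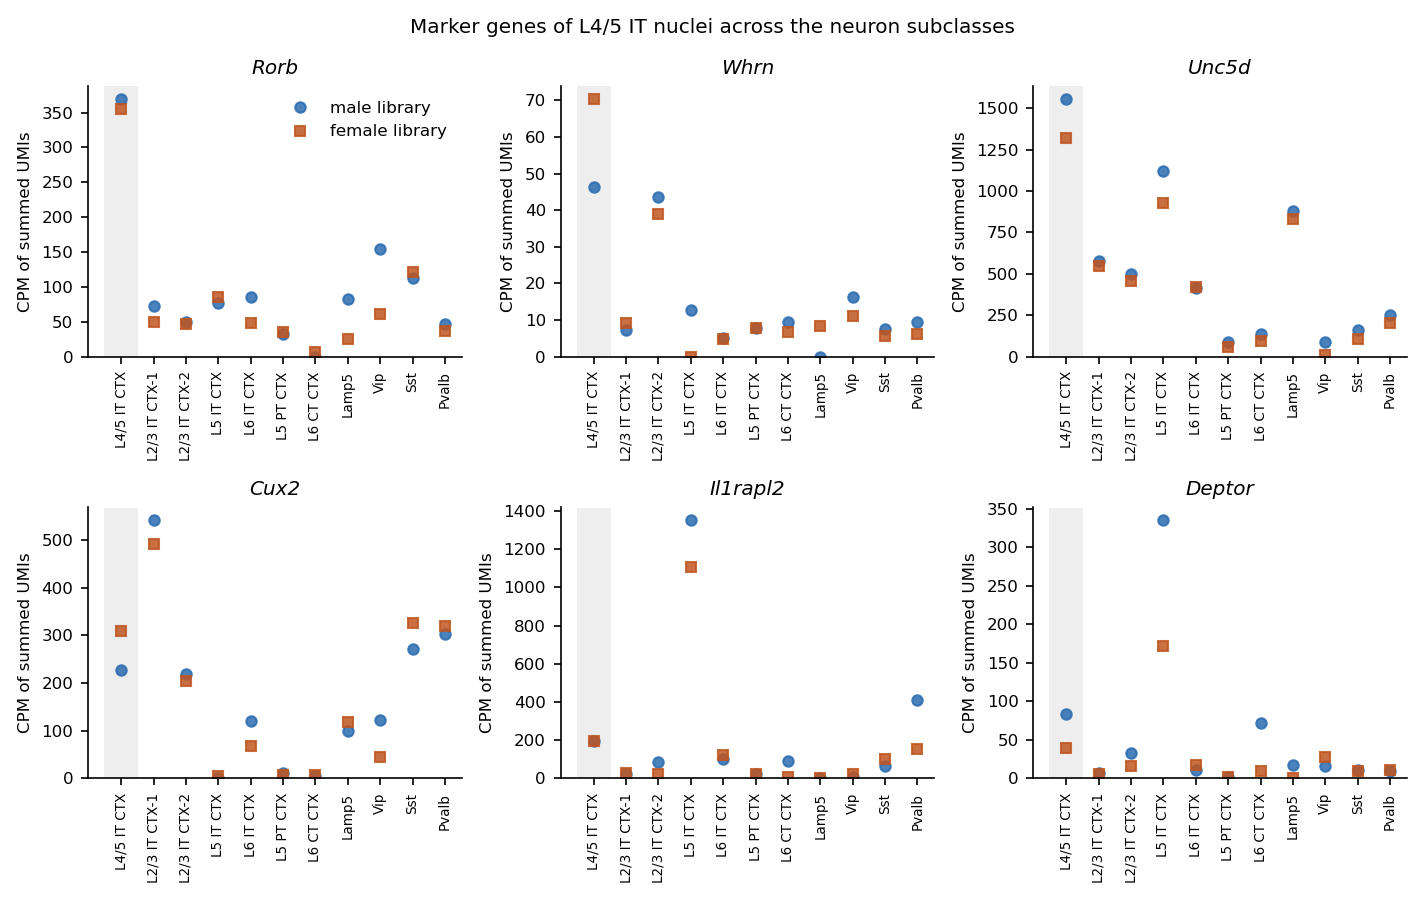
Levels of identity genes in CPM in the summed nuclei of each neuronal subclass, with 1 point per library. Rorb was at 370 and 355 CPM in L4/5 IT nuclei, above every other subclass, while Cux2 was higher in L2/3 IT CTX-1 nuclei and near 0 in L5 PT CTX nuclei.

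Several other genes of layer and projection identity differed between L4/5 IT nuclei and the neighbours, but not all of them separated IT from other neurons. Cux2, a homeobox factor of upper-layer neurons, was at 226 and 310 CPM in L4/5 IT nuclei, at 541 and 491 CPM in L2/3 IT CTX-1 nuclei and at 9.80 and 5.78 CPM in L5 PT CTX nuclei. It thus lay below the superficial subclass (log2 difference -0.87, adjusted p = 0.0284) and far above the deep one (5.21, adjusted p = 1.67e-11). Unc5d, a netrin receptor of upper-layer and layer 4 neurons, was at 1558 and 1321 CPM in L4/5 IT nuclei, against 580 and 545 CPM in L2/3 IT CTX-1 and 91.3 and 56.4 CPM in L5 PT CTX nuclei. Its log2 difference was 1.41 ± 0.27 against the former (adjusted p = 0.00155) and 4.34 ± 0.30 against the latter (adjusted p = 4.42e-10). Whrn, which encodes the scaffold protein whirlin, was at 46.4 and 70.4 CPM against 7.22 and 9.07 CPM and 7.96 and 7.81 CPM, log2 differences of 2.88 and 2.91. For Unc5d and Whrn, both L4/5 IT libraries lay above both libraries of either neighbour. Across the other subclasses, Cux2 was at 303 and 319 CPM in Pvalb and 271 and 326 CPM in Sst nuclei. In L5 IT CTX nuclei Cux2 was at 0 and 4.78 CPM. Whrn was at 43.6 and 39.0 CPM in L2/3 IT CTX-2 nuclei and at 12.9 and 0 CPM in L5 IT CTX nuclei. Of the 9 tested genes of the list of L4 and L5 IT markers, 4 were higher and 1 lower than in L2/3 IT CTX-1 nuclei, and 4 were higher and 0 lower than in L5 PT CTX nuclei. Beside these stand 2.75% and 1.2%, and 9.87% and 7.17%, of all genes. Without the nuclei of cluster 12, described below, the counts of 7 were 2 and 1, and 3 and 0. Of all genes, 0.633% and 0.686%, and 5.99% and 4.74%, were then called. The median log2 difference from L2/3 IT CTX-1 went from 2.06 to 0.57. With all nuclei the lower gene was Col27a1, a fibrillar collagen chain, at 31.0 and 33.8 CPM against 162 and 106 CPM in L2/3 IT CTX-1 nuclei (log2 difference -1.96 ± 0.28, adjusted p = 6.58e-05).

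Genes of the deep-layer and subcerebral list differed in both directions. Crym, a marker of deep-layer projection neurons, was at 19.4 and 11.3 CPM in L4/5 IT nuclei and at 59.4 and 59.6 CPM in L5 PT CTX nuclei (log2 difference -1.96 ± 0.36, adjusted p = 0.000269). Sox5, which postpones corticofugal differentiation programmes, was at 267 and 211 CPM against 712 and 661 CPM. Of the 13 tested genes of the deep-layer list, 6 were lower and 3 higher than in L5 PT CTX nuclei, beside 7.17% and 9.87% of all genes tested. The higher ones were Hs3st4, a heparan sulfate sulfotransferase, at 124 and 235 CPM against 19.0 and 26.9 CPM (2.97 ± 0.36, adjusted p = 1.11e-06), Tbr1 (2.48), a T-box factor of corticothalamic neurons, and Sulf1 (2.42), a heparan sulfatase. Hs3st4 was also higher than in L2/3 IT CTX-1 nuclei, by 2.95. By deposited cluster, described below, it was at 272 and 568 CPM in L4/5 IT nuclei of cluster 12. It was at 40.4 and 94.9 CPM in cluster 3 and 20.3 and 22.8 CPM in cluster 17. L6 CT CTX nuclei held 2647 and 2421 CPM. Without cluster 12, 1 of 11 deep-layer genes was higher and 6 lower than in L5 PT CTX nuclei, beside 5.99% and 4.74% of all genes. Against L2/3 IT CTX-1, 0 were then called. Of the 9 tested genes of the upper-layer list, 8 were higher and 0 lower than in L5 PT CTX nuclei, and 6 and 0 without cluster 12. The 11 genes of the inhibitory list summed to 48.4 and 42.2 CPM in L4/5 IT nuclei, 45.1 and 35.4 CPM in L2/3 IT CTX-1 nuclei and 30.6 and 10.7 CPM in L5 PT CTX nuclei, and none of the 8 tested was called in either comparison. Slc32a1, the vesicular GABA transporter, Sst, Pvalb and Vip were at 0 UMIs in both libraries and Gad2, an enzyme of GABA synthesis, at 0 and 2 UMIs, while Gad1, its relative, was at 1.93 and 9.86 CPM and Lamp5 at 11.6 and 7.04 CPM. Slc17a7, the vesicular glutamate transporter of cortical pyramidal cells, was at 77.4 and 36.6 CPM. The astrocyte list summed to 404 and 391 CPM in L4/5 IT nuclei, 187 and 220 CPM in L2/3 IT CTX-1 nuclei and 64.3 and 54.9 CPM in L5 PT CTX nuclei, and this was mostly Slc1a2, a glutamate transporter, at 323 and 299 CPM in L4/5 IT nuclei. Of the 8 genes of the astrocyte list, Gfap, Aqp4 and Gja1 were at 0 UMIs in L4/5 IT nuclei of both libraries. The other members, Aldh1l1 among them, had UMIs in both libraries. Of these, Slc4a4 was also called higher than in L5 PT CTX nuclei (log2 difference 3.22 ± 0.43, adjusted p = 4.00e-06).

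Across the transcriptome the L4/5 IT nuclei lay nearer to the superficial IT subclass. Over 8218 genes, Pearson's r of log2 CPM between L4/5 IT and L2/3 IT CTX-1 was 0.910 (male) and 0.921 (female), against 0.838 and 0.853 for L5 PT CTX. These are correlations across genes within a library, and genes are not independent replicates. In the edgeR fit, 325 of 8218 genes (3.95%) were called at an adjusted p under 0.05 against L2/3 IT CTX-1, of which 226 were higher (2.75%) and 99 lower (1.2%) in L4/5 IT nuclei. Against L5 PT CTX, 1400 genes (17%) were called, 811 higher (9.87%) and 589 lower (7.17%). Against the mean of both neighbours, 851 genes (10.4%) were called, 582 higher (7.08%) and 269 lower (3.27%). With the library as a block, since all subclasses of a library come from 1 pool of animals, the counts were 674 against L2/3 IT CTX-1 and 1316 against the mean. Every gene called without the block was also called with it. The direction was the same in each library alone for 324 of the 325 genes and 1396 of the 1400 genes. The genes were called on these same 2 libraries, which favours such agreement, so it is a description and not a replication.

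L5 PT CTX and L2/3 IT CTX-1 nuclei, compared without any L4/5 IT value, differed at 1024 genes (12.5%), 491 higher (5.97%) and 533 lower (6.49%) in L5 PT CTX nuclei. These genes gave a log2 scale on which 0 is the L2/3 IT CTX-1 level and 1 the L5 PT CTX level. The L4/5 IT level was nearer to L2/3 IT CTX-1 in both libraries for 724 of them (70.7%), nearer to L5 PT CTX in both for 124 (12.1%), and not the same in both for 176. The median position was 0.0632 for male and 0.0130 for female nuclei. The genes higher in L2/3 IT CTX-1 (74.5% nearer to it) and those higher in L5 PT CTX nuclei (66.6%) showed the same order.

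**Figure D2:**
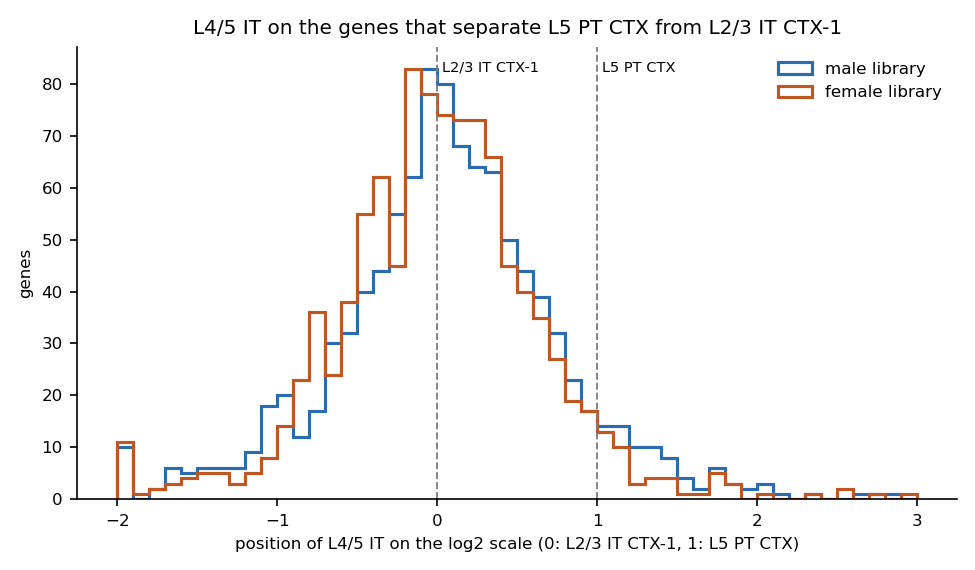
Position of the L4/5 IT level at the 1024 genes that separate L5 PT CTX from L2/3 IT CTX-1 nuclei, by library, as a count of genes, where 0 is the L2/3 IT CTX-1 level, 1 the L5 PT CTX level, and values beyond the axis are drawn at its ends. The medians, 0.0632 and 0.0130, lie near the L2/3 IT CTX-1 level.

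The L4/5 IT nuclei were not 1 uniform population. The deposited clustering, which was made on the same counts, placed 54 male and 38 female L4/5 IT nuclei in cluster 3, 25 and 21 in cluster 12, and 21 and 12 in cluster 17. Values by cluster are therefore given as a description, with no test. Rorb was at 412 and 319 CPM in cluster 3, 456 and 442 CPM in cluster 12, and 101 and 296 CPM in cluster 17, so the cluster 12 nuclei held the identity gene at a level like that of cluster 3. The second label also named 44 of these 46 nuclei L4/5 IT CTX (24 of 25 and 20 of 21), against 31 of 54 and 30 of 38 in cluster 3. In cluster 17 it did so for 13 of 21 and 4 of 12. Each cluster held mostly nuclei of other labels. The most frequent label was L2/3 IT CTX-1 in cluster 3 (471 of 660 nuclei of the neuron subset). It was L6 IT CTX in cluster 17 (40 of 125) and L6 CT CTX in cluster 12 (73 of 156).

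Cluster 12 stood apart from clusters 3 and 17 in injury-response genes. Ecel1, which encodes an endopeptidase induced in damaged neurons, was at 152 and 242 CPM in cluster 3, at 203 and 372 CPM in cluster 17, and at 10.2 and 4.33 CPM in cluster 12, where 3 UMIs were found in all. At least 1 Ecel1 UMI was held by 44.4% of male and 76.3% of female nuclei in cluster 3, by 66.7% and 100% in cluster 17, and by 8% and 4.76% in cluster 12. The share in microglia was 5.80% and 6.84%, but microglia were shallower, with medians of 1298.5 and 3012.5 UMIs. In CPM, Ecel1 was at 40.1 and 21.4 in microglia, above both cluster 12 values. After thinning to 2000 UMIs, the share was 0% and 0% in cluster 12 and 5.45% and 3.62% in microglia. Thinning left out 1378 of 1690 male and 431 of 2338 female microglia, so that share is of the deeper microglia only. Ecel1 in cluster 12 was thus not above the level in microglia. Cluster 12 nuclei were not shallower than those of cluster 3. Their median was 7387 and 9794 UMIs, against 3436 and 8769 in cluster 3 and 4496 and 10610.5 in cluster 17.

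Atf3 itself was at 67.3 and 48.9 CPM in cluster 3 and at 71.0 and 37.97 CPM in cluster 17. In cluster 12 it was at 5.12 CPM in male nuclei and at 0 of 230828 UMIs in female nuclei, which allows up to 13.0 CPM. Jun, the AP-1 subunit phosphorylated by JNK after axon injury, was at 53.8 and 48.9 CPM in cluster 3, 162 and 75.9 CPM in cluster 17 and 10.2 and 21.7 CPM in cluster 12. Ddit3, which encodes CHOP, a transcription factor of the integrated stress response, was at 62.8 and 48.9 CPM, 152 and 122 CPM, and 0 and 17.3 CPM in the same order. Sox11, a factor of regenerating neurons, was at 238 and 175 CPM in cluster 3, 274 and 228 CPM in cluster 17 and 30.7 and 52.0 CPM in cluster 12. Rest, a repressor of neuronal genes, had 0 UMIs in cluster 12 of both libraries.

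Of the 17 genes of the injury and stress panel, 13 were lower and 2 higher in cluster 12 than in clusters 3 and 17 in both libraries, and their summed level was 671 and 706 CPM against 1710 and 1531 CPM. Over all 8218 genes, 2867 (34.9%) were lower and 2429 (29.6%) higher in cluster 12 in both libraries. The study chose the panel from nuclei of these libraries, so it is not independent evidence of a direction. Of 25 regeneration-associated genes tested, 18 were lower in both libraries, as were 20 of 29 genes of the integrated stress and unfolded protein response.

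Genes of electrical signalling were more often higher than lower in cluster 12, to a degree that differed by list. Of 20 sodium and calcium channel genes, 16 were higher in cluster 12 in both libraries and 0 were lower. Over all genes, 29.6% were higher and 34.9% lower. Of 37 potassium and HCN channel genes, 20 were higher and 9 lower. The ion channel panel had 8 higher and 4 lower of 14, and the sodium pump and chloride cotransporter list 2 and 1 of 7. Scn1a, the sodium channel Nav1.1, was at 246 and 325 CPM in cluster 12, 103 and 94.9 CPM in cluster 3 and 20.3 and 45.6 CPM in cluster 17, and it had at least 1 UMI in 80.4% of cluster 12 nuclei against 31.5% and 15.2% over both libraries. Gria4, an AMPA receptor subunit, was at 1143 and 1001 CPM in cluster 12, against 260 and 308 CPM and 40.6 and 152 CPM. Grm3, a metabotropic glutamate receptor, was at 517 and 529 CPM, against 126 and 118 CPM and 30.4 and 83.5 CPM. Of 31 glutamate and GABA receptor genes, 23 were higher and 3 lower in cluster 12 in both libraries, beside the same shares of all genes.

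RNA quality and other labels were set beside this split. The median share of mitochondrial UMIs was 0.849% in male cluster 12 nuclei, against 0.0724% and 0.209% in male clusters 3 and 17. In the female library it was 0.0448% in cluster 12, against 0.0714% and 0.0126%. The summed level of the 9 mitochondrially encoded genes was higher in cluster 12 in both libraries, at 16195 and 5259 CPM against 1514 and 905 CPM in clusters 3 and 17, and 9 of 9 genes were higher in both. Among them mt-Nd1 was at 1465 and 524 CPM against 106 and 50.1 CPM. The summed mitochondrial level thus moved with the split in both libraries, while the median share per nucleus did so in the male library only. The part of mitochondrial RNA in the split was not tested. The L2/3 IT CTX-1 nuclei of cluster 12, 4 in each library, held 0 Ecel1 UMIs as well, and the L5 IT CTX nuclei of cluster 12 held 1 UMI in 10 nuclei. Low Ecel1 was not a trait of the whole cluster: its most frequent label, L6 CT CTX with 34 male and 39 female nuclei, held 14 and 115 Ecel1 UMIs (71.6 and 274 CPM), in 11 and 31 nuclei, with Scn1a at 71.6 and 90.4 CPM. The astrocyte list summed to 707 and 607 CPM in cluster 12, against 256 and 374 CPM in cluster 3 and 142 and 60.8 CPM in cluster 17.

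**Figure D3:**
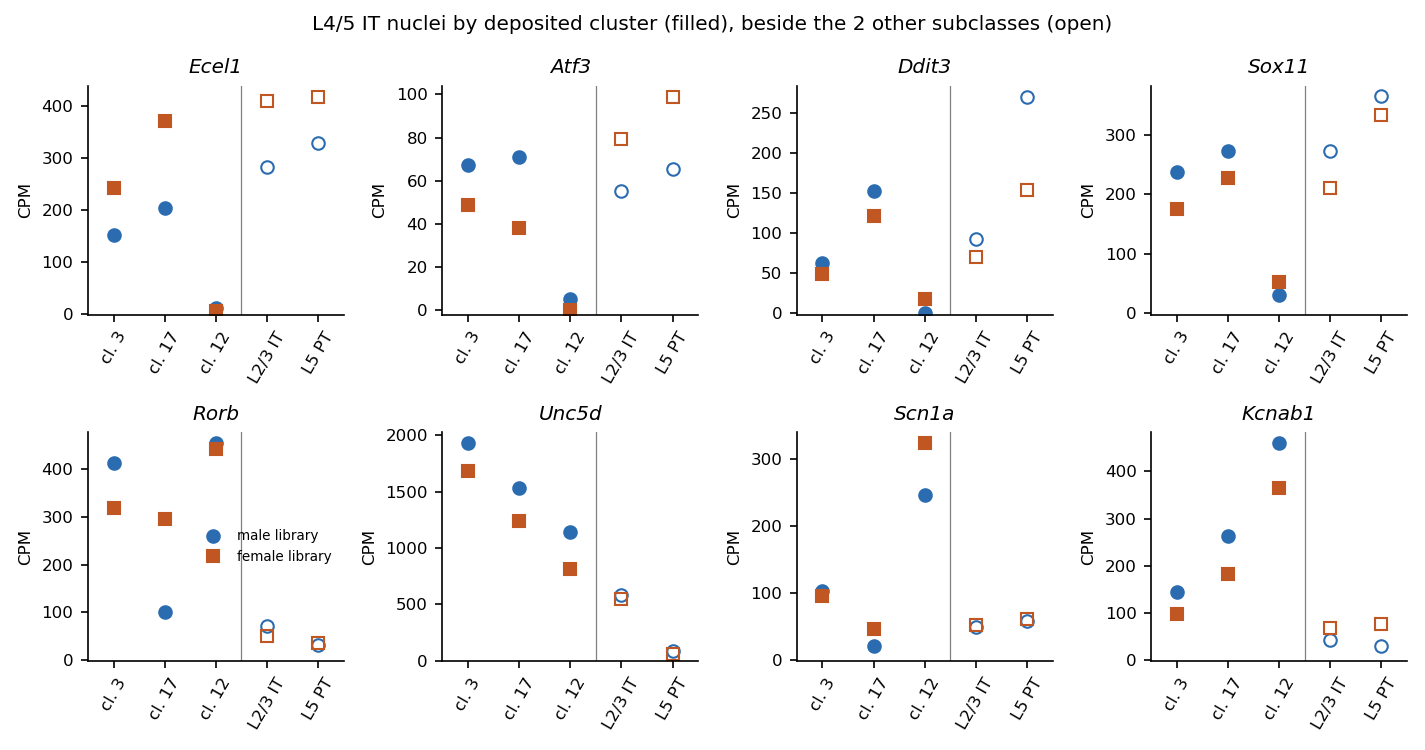
Levels in CPM of injury-response and signalling genes in L4/5 IT nuclei split by deposited cluster (3, 17 and 12, filled points) and in L2/3 IT CTX-1 and L5 PT CTX nuclei (open points), with 1 point per library. Ecel1 was at 10.2 and 4.33 CPM in cluster 12 against 152 to 372 CPM in clusters 3 and 17, while Scn1a was at 246 and 325 CPM against 20.3 to 103 CPM.

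As 46 of the 171 nuclei lay in cluster 12, each comparison was also run without them. The count of called genes against L2/3 IT CTX-1 was then 98 of 7430 (1.32%), 47 higher (0.633%) and 51 lower (0.686%). Against L5 PT CTX it was 797 (10.7%), 445 higher (5.99%) and 352 lower (4.74%). Rorb stayed at log2 differences of 2.43 and 3.23, and Whrn and Unc5d also kept their calls. Il1rapl2, a synaptic adhesion gene of layer 5 IT neurons, was at 197 and 196 CPM in all L4/5 IT nuclei against 22.9 and 24.5 CPM in L2/3 IT CTX-1 nuclei, a log2 difference of 3.095 ± 0.44 (adjusted p = 7.00e-05). L5 IT CTX nuclei held far more Il1rapl2, at 1351 and 1109 CPM, and Pvalb nuclei held 412 and 151 CPM. Within L4/5 IT nuclei Il1rapl2 was at 425 and 485 CPM in cluster 12 and at 31.4 and 54.7 CPM in cluster 3, and without cluster 12 the difference was 1.33 (adjusted p = 0.414). Deptor, an inhibitor of mTOR and a layer 5 IT marker, was at 215 and 95.3 CPM in cluster 12 and at 0 and 8.63 CPM in cluster 3. Its log2 difference from L2/3 IT CTX-1 was 3.33, and 0.57 without cluster 12 (adjusted p = 0.958). Over all L4/5 IT nuclei Deptor was at 83.2 and 39.4 CPM, below L5 IT CTX nuclei at 335 and 172 CPM.

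Of the 17 injury and stress genes of the panel, 9 were lower and 0 higher in L4/5 IT than in L5 PT CTX nuclei at an adjusted p under 0.05, with a median log2 difference of -1.15 against -0.02 over all genes. Without cluster 12, 3 were lower and 1 higher, with a median of -0.65. Of all genes, 7.17% were lower and 9.87% higher with all nuclei, and 4.74% and 5.99% without cluster 12. Jun alone was called lower against L2/3 IT CTX-1 nuclei, at 58.0 and 45.1 CPM against 102 and 163 CPM (-1.34 ± 0.37, adjusted p = 0.0374, and -0.74 in the male library alone), and without cluster 12 none of the 17 was called there, Jun being at -0.89 (adjusted p = 0.438). Ecel1 was at 108 and 189 CPM in L4/5 IT nuclei, 283 and 410 CPM in L2/3 IT CTX-1 nuclei and 330 and 418 CPM in L5 PT CTX nuclei. Both L4/5 IT libraries lay below both libraries of either neighbour. The log2 difference of Ecel1 from L5 PT CTX was -1.28 ± 0.38 (adjusted p = 0.0192) and that from L2/3 IT CTX-1 was -1.15 ± 0.38 (adjusted p = 0.0995, and 0.000149 with the library block). Without cluster 12 the Ecel1 differences were -0.69 (adjusted p = 0.301) and -0.56 (adjusted p = 0.776).

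Atf3 was at 44.5 and 31.0 CPM in L4/5 IT nuclei, 55.4 and 79.4 CPM in L2/3 IT CTX-1 nuclei and 65.5 and 98.9 CPM in L5 PT CTX nuclei. Its log2 difference from L5 PT CTX was -1.15 ± 0.42 (adjusted p = 0.0621, and 0.00381 with the library block). Atf3 UMIs were found in 13% of male and 19.7% of female L4/5 IT nuclei, although all nuclei had been sorted by a reporter that Atf3 drives. Most nuclei of the neighbours also lacked Atf3 UMIs. The share with them was 17.2% and 31.0% in L2/3 IT CTX-1 nuclei and 21.0% and 46.6% in L5 PT CTX nuclei. After thinning as above it was 10.3% and 7.14% in L4/5 IT nuclei. It was then 10.3% and 14.7%, and 12.4% and 15.5%, in the neighbours in the same order. The paper likewise reports little or no detectable Atf3 in many of the captured neurons. The transcript of the reporter itself was at 0 UMIs in male L4/5 IT nuclei, which allows up to 5.80 CPM, and at 1 UMI in female ones. In L2/3 IT CTX-1 nuclei the reporter was at 5.42 and 9.98 CPM and in L5 PT CTX nuclei at 4.90 and 15.04 CPM.

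Sprr1a, a small proline-rich protein of regenerating axons, was at 29.0 and 18.3 CPM in L4/5 IT nuclei and at 117 and 74.0 CPM in L5 PT CTX nuclei (log2 difference -1.98 ± 0.35, adjusted p = 0.00015). Ddit3 was at 56.1 and 52.1 CPM against 270 and 154 CPM (-1.90 ± 0.39, adjusted p = 0.000806), and Ret, the receptor tyrosine kinase for GDNF family ligands, at 54.2 and 47.9 CPM against 123 and 178 CPM (-1.56 ± 0.33, adjusted p = 0.00103). Sprr1a, Ddit3 and Ret were the panel genes that stayed lower without cluster 12, at -1.47, -1.36 and -1.06. Creb5, a CREB family factor, was then higher at 0.89 (adjusted p = 0.0196), and had been at 0.37 (adjusted p = 0.356) with all nuclei. Sox11 (-1.13), Rest (-1.19), Ern1 (-1.15) and Jun (-1.26) were called lower with all nuclei and were not called without cluster 12.

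The promoters of these genes were read from RefSeq (GRCm38.p6) as windows of 300 bases around each gene's start, and 6 of the 9 genes called lower had a window. The AP-1 letters TGANTCA, searched on both strands, were found in 2 of them, Sprr1a and Ddit3, while 7.81% of 32851 promoter windows held them. The CRE letters TGACGTCA were in 0 of the 6 (1.79% of all windows) and the ATF4 and C/EBP letters TGATGNAA in 0 (3.97%). The windows of Sprr1a (chr3:92485832-92486131, minus strand, 2 matches) and Ddit3 (chr10:127290543-127290842, plus strand, 1 match) are shown because these genes kept their lower level without cluster 12, with the AP-1 letters in capitals. A match of letters is a description and says nothing of binding.
Sprr1a: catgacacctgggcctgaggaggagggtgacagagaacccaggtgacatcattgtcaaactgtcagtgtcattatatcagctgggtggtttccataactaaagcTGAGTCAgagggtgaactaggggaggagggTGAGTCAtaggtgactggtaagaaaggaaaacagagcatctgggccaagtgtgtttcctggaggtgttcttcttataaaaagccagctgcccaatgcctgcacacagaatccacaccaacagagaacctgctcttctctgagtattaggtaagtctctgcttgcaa
Ddit3: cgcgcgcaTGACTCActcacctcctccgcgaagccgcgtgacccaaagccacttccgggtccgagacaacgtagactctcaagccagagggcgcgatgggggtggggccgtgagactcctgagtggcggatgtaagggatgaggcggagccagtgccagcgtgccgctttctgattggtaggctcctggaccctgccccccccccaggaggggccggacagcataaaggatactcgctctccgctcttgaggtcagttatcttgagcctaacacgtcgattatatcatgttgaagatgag

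Regeneration-associated genes were more often lower than higher. Of 25 tested, 10 were lower and 1 higher than in L5 PT CTX nuclei, with a median log2 difference of -0.88, beside 7.17% lower and 9.87% higher of all genes. Without cluster 12, 5 of 24 were lower and 2 higher, beside 4.74% and 5.99% of all genes, with a median of -0.55. Adcyap1, the neuropeptide PACAP, was at 9.67 and 15.5 CPM in L4/5 IT nuclei and at 79.6 and 87.1 CPM in L5 PT CTX nuclei (log2 difference -2.64 ± 0.46, adjusted p = 0.000151). Cd44, a hyaluronan receptor, was at 96.7 and 71.8 CPM against 413 and 311 CPM, and Itga7, a laminin receptor subunit, at 11.6 and 5.63 CPM against 35.5 and 64.8 CPM. The difference of Itga7 was -1.52 in the male library alone and -3.41 in the female library alone. Adcyap1, Cd44 and Itga7 all kept their calls without cluster 12. Npy, a neuropeptide of injured neurons, was the 1 gene called against L2/3 IT CTX-1 nuclei, at 5.80 and 11.3 CPM against 86.0 and 67.6 CPM (log2 difference -3.01 ± 0.77, adjusted p = 0.022, and 0.166 without cluster 12).

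The integrated stress and unfolded protein response list had 4 of 29 genes lower than in L5 PT CTX nuclei and 0 higher. They were Eif2ak2, the double-stranded RNA kinase PKR, Ddit3, Wars, a tRNA synthetase, and Ern1, the sensor IRE1. The difference of Eif2ak2, -2.33, was -1.53 in the male library alone and -3.64 in the female library alone. The count of 4 of 29 stands beside 7.17% of all genes called lower. Of 15 genes of p53 and BCL2 family apoptosis, 3 were lower and 2 higher, beside 7.17% and 9.87% of all genes, and without cluster 12, 0 were lower and 1 higher. Mdm2, the ubiquitin ligase that restrains p53, was at 197 and 151 CPM against 389 and 287 CPM in L5 PT CTX nuclei, and Bcl2, an inhibitor of apoptosis, at 34.8 and 59.1 CPM against 15.9 and 15.6 CPM. Mapk10, the neuronal kinase JNK3, was higher than in L5 PT CTX nuclei at 660 and 584 CPM against 255 and 223 CPM (log2 difference 1.42 ± 0.20, adjusted p = 1.14e-05), and 1.12 without cluster 12 (adjusted p = 0.00044).

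**Figure D4:**
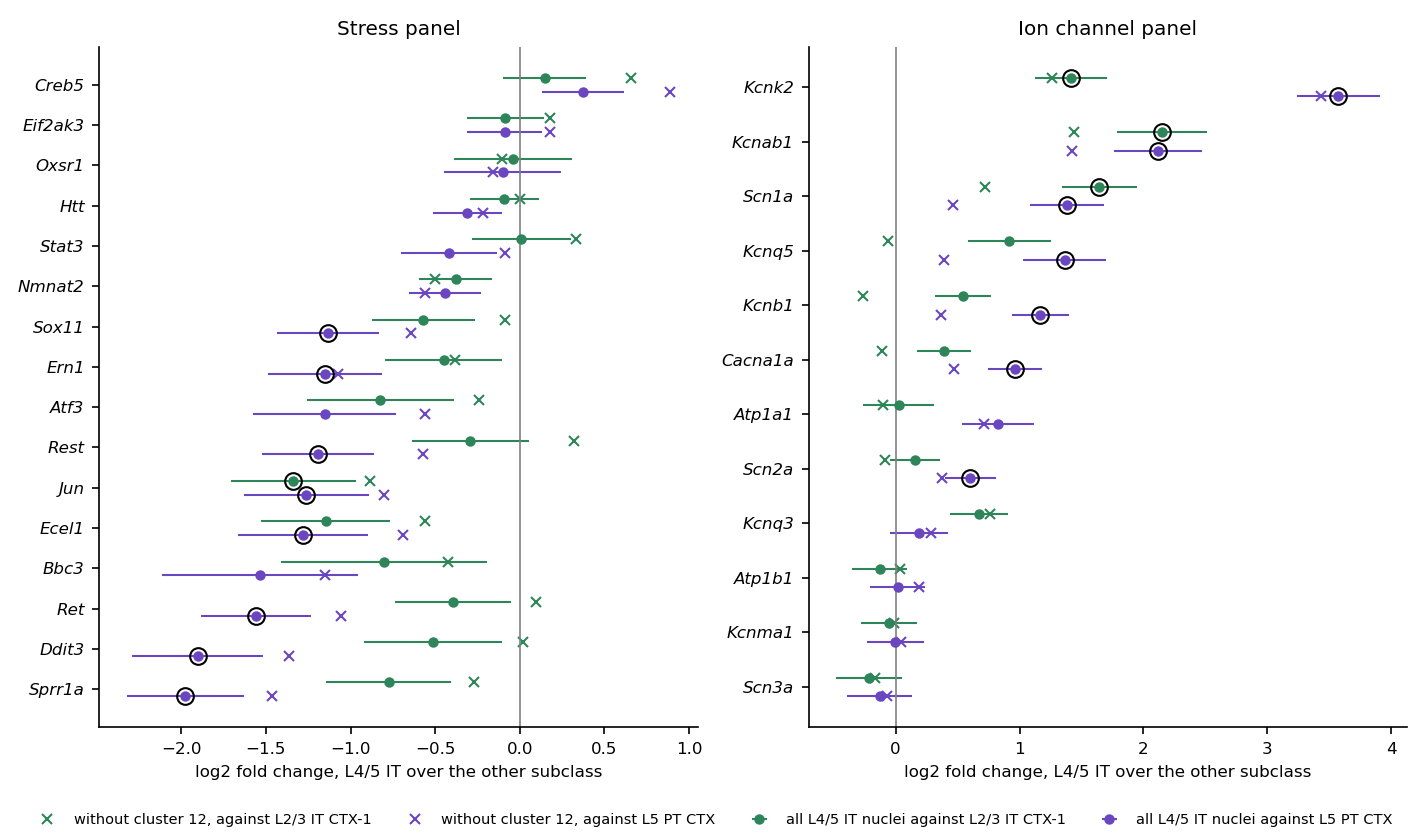
Log2 difference of L4/5 IT nuclei from L2/3 IT CTX-1 and from L5 PT CTX nuclei for the reported genes of the stress panel and the ion channel panel. Circles give the fit over all nuclei with bars for the approximate SE, black rings mark an adjusted p under 0.05 and crosses give the value without cluster 12. The stress genes lie mostly below 0 against L5 PT CTX nuclei, down to -1.98 for Sprr1a, and most crosses of the called genes lie nearer to 0.

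With all nuclei, ion channel genes were more often higher than lower in L4/5 IT against L5 PT CTX nuclei. Of 14 genes of the ion channel panel, 7 were higher and 2 lower, beside 9.87% and 7.17% of all genes. Without cluster 12, 2 were higher and 2 lower, beside 5.99% and 4.74%. This panel, like the stress panel, was chosen by the study on these libraries. Scn1a was at 141 and 161 CPM in L4/5 IT nuclei, 48.7 and 51.7 CPM in L2/3 IT CTX-1 nuclei and 57.6 and 60.5 CPM in L5 PT CTX nuclei. Its log2 differences were 1.65 ± 0.31 (adjusted p = 0.00123) and 1.38 ± 0.30 (adjusted p = 0.00139), and 0.72 and 0.47 without cluster 12, neither of them called. Kcnab1, a subunit that speeds inactivation of Kv1 channels, was at 286 and 200 CPM against 42.1 and 68.5 CPM in L2/3 IT CTX-1 and 30.01 and 76.1 CPM in L5 PT CTX nuclei. Without cluster 12 it was still called against L5 PT CTX (1.42, adjusted p = 0.015) but not against L2/3 IT CTX-1 (1.44, adjusted p = 0.0723). The difference of Kcnab1 from L5 PT CTX was 3.29 in the male library alone and 1.40 in the female library alone.

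Kcnq5, an M-current subunit, was at 1231 and 914 CPM against 446 and 404 CPM in L5 PT CTX nuclei (1.36, adjusted p = 0.00503). Against L2/3 IT CTX-1 it was at 0.92 (adjusted p = 0.149, and 0.0181 with the library block), and neither comparison of Kcnq5 was called without cluster 12.

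In the full potassium and HCN channel list, 19 of 37 genes were higher and 2 lower than in L5 PT CTX nuclei, and 15 of 35 were higher and 3 lower without cluster 12, beside 9.87% and 7.17%, and 5.99% and 4.74%, of all genes. Compared with L2/3 IT CTX-1 nuclei 9 were higher and 0 lower, and 2 higher and 0 lower without cluster 12. The shares of all genes there were 2.75% and 1.2%, and 0.633% and 0.686%. Kcnk2, the mechano-gated leak channel TREK-1, was at 98.7 and 97.2 CPM, against 45.1 and 32.2 CPM in L2/3 IT CTX-1 and 7.35 and 8.68 CPM in L5 PT CTX nuclei. Within L4/5 IT nuclei it was at 98.6 and 89.2 CPM in cluster 3, 97.3 and 134 CPM in cluster 12 and 101 and 53.2 CPM in cluster 17. Its calls held without cluster 12 (1.26 and 3.43). Kcnh5, a voltage-gated channel of the ether-à-go-go family, was at 331 and 346 CPM against 137 and 143 CPM and 33.7 and 50.6 CPM, with log2 differences of 1.33 and 2.98, and of 1.34 and 3.004 without cluster 12. Of 20 sodium and calcium channel genes, 10 were higher and 1 lower than in L5 PT CTX nuclei, beside 9.87% and 7.17% of all genes. Without cluster 12, 2 were higher and 2 lower, beside 5.99% and 4.74%. Cacna1g, a T-type calcium channel, was at 44.5 and 57.7 CPM against 4.29 and 5.78 CPM (3.29 ± 0.49, adjusted p = 1.86e-05, and 2.67 without cluster 12).

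Glutamate receptor genes were among the largest differences. Of 31 glutamate and GABA receptor genes tested, 15 were higher and 3 lower than in L5 PT CTX nuclei (8 and 3 of 30 without cluster 12). Against L2/3 IT CTX-1 nuclei 7 were higher and 2 lower (1 and 3 without cluster 12). These counts stand beside the same shares of all genes as the potassium and HCN channel list. Grm3 was at 255 and 245 CPM, against 28.9 and 34.0 CPM and 9.80 and 8.97 CPM, with log2 differences of 3.03 ± 0.34 and 4.75 ± 0.38, and of 1.76 and 3.48 without cluster 12, all of them called. Gria4 was at 551 and 504 CPM, against 108 and 142 CPM in L2/3 IT CTX-1 and 20.8 and 17.4 CPM in L5 PT CTX nuclei. Its log2 difference was 2.12 from L2/3 IT CTX-1 (0.94 without cluster 12, adjusted p = 0.25) and 4.82 from L5 PT CTX (3.65 without cluster 12, adjusted p = 2.79e-07). Grik4, a kainate receptor subunit, was lower than in both neighbours, at 89.0 and 54.9 CPM against 309 and 337 CPM and 289 and 275 CPM, and its difference from L2/3 IT CTX-1 was -2.14 with all nuclei and -2.20 without cluster 12. Grik3, its relative, was at 77.4 and 70.4 CPM, between L2/3 IT CTX-1 (16.8 and 36.7 CPM) and L5 PT CTX nuclei (348 and 430 CPM).

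Guidance and adhesion genes differed in both directions. Of 37 axon guidance genes, 7 were higher and 0 lower than in L2/3 IT CTX-1 nuclei, and 2 were higher and 2 lower without cluster 12, beside 2.75% and 1.2%, and 0.633% and 0.686%, of all genes. Epha7, an ephrin receptor, was at 94.8 and 77.4 CPM against 27.1 and 26.3 CPM (log2 difference 1.73 ± 0.27, adjusted p = 0.000207), and was still called without cluster 12 (1.24, adjusted p = 0.0457). Robo1, a Slit receptor, was at 288 CPM in male but 98.6 CPM in female L4/5 IT nuclei, against 66.8 and 74.4 CPM. Its difference of 1.45 was 2.17 in the male library alone and 0.45 in the female library alone, and went to -0.40 without cluster 12. Against L5 PT CTX nuclei 9 guidance genes were higher and 5 lower, and without cluster 12, 6 of 34 were higher and 10 lower, beside 9.87% and 7.17% of all genes in the former case and 5.99% and 4.74% in the latter. Plxnd1, a semaphorin receptor, was at 44.5 and 70.4 CPM against 7.35 and 9.25 CPM in L5 PT CTX nuclei, and Ntn1, the guidance cue netrin-1, at 1.93 and 14.1 CPM against 57.0 and 64.2 CPM (-2.73, and -4.53 in the male library alone).

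Of 17 cadherin and protocadherin genes, 5 were higher and 0 lower than in L2/3 IT CTX-1 nuclei, and 9 higher and 4 lower than in L5 PT CTX nuclei. Without cluster 12 these counts were 1 and 1, and 5 and 1. The shares of all genes were 2.75% and 1.2%, and 9.87% and 7.17%, with all nuclei. Without cluster 12 they were 0.633% and 0.686%, and 5.99% and 4.74%. Pcdh15 was at 1848 CPM in male and 622 CPM in female L4/5 IT nuclei, against 237 and 239 CPM in L2/3 IT CTX-1 nuclei (2.40 ± 0.40, adjusted p = 0.000319, and 1.77 without cluster 12). The difference was 3.03 in the male library alone and 1.42 in the female library alone, so its size depended on the library. Cdh13 was at 21.3 and 106 CPM against 438 and 555 CPM in L5 PT CTX nuclei (-2.85 ± 0.35, adjusted p = 1.19e-06), a difference of -4.28 in the male library alone. Cdh12 was at 627 and 714 CPM against 87.0 and 66.8 CPM (3.18 ± 0.34, adjusted p = 1.45e-07).

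With all nuclei, nuclear receptor genes, the label's own marker Rorb among them, were more often higher than lower. Of 11 tested, 4 were higher and 1 lower than in L2/3 IT CTX-1 nuclei, and 5 higher and 0 lower than in L5 PT CTX nuclei. The shares of all genes were 2.75% and 1.2%, and 9.87% and 7.17%. Without cluster 12 the counts of 10 were 1 and 0, and 3 and 1, beside 0.633% and 0.686%, and 5.99% and 4.74%. The median log2 difference was then -0.02 against L2/3 IT CTX-1 and -0.33 against L5 PT CTX. Rora, the close relative of Rorb, was at 2188 and 1907 CPM against 844 and 837 CPM and 511 and 460 CPM (log2 differences 1.34 ± 0.21 and 2.11 ± 0.21). Rora without cluster 12 was at 0.73 (adjusted p = 0.081) and 1.51 (adjusted p = 1.15e-05). Nr4a1, an immediate early gene, was at 46.4 and 26.8 CPM against 3.68 and 4.05 CPM in L5 PT CTX nuclei (3.16 ± 0.67, adjusted p = 0.00133), and 1.19 without cluster 12 (adjusted p = 0.574). Of 9 mitochondrially encoded genes, 5 were called higher than in L5 PT CTX nuclei, beside 9.87% of all genes, and 0 were called without cluster 12. Among them mt-Nd1 was at 619 and 204 CPM against 168 and 57.5 CPM, a log2 difference of 1.93 that went to -0.49 without cluster 12.

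**Figure D5:**
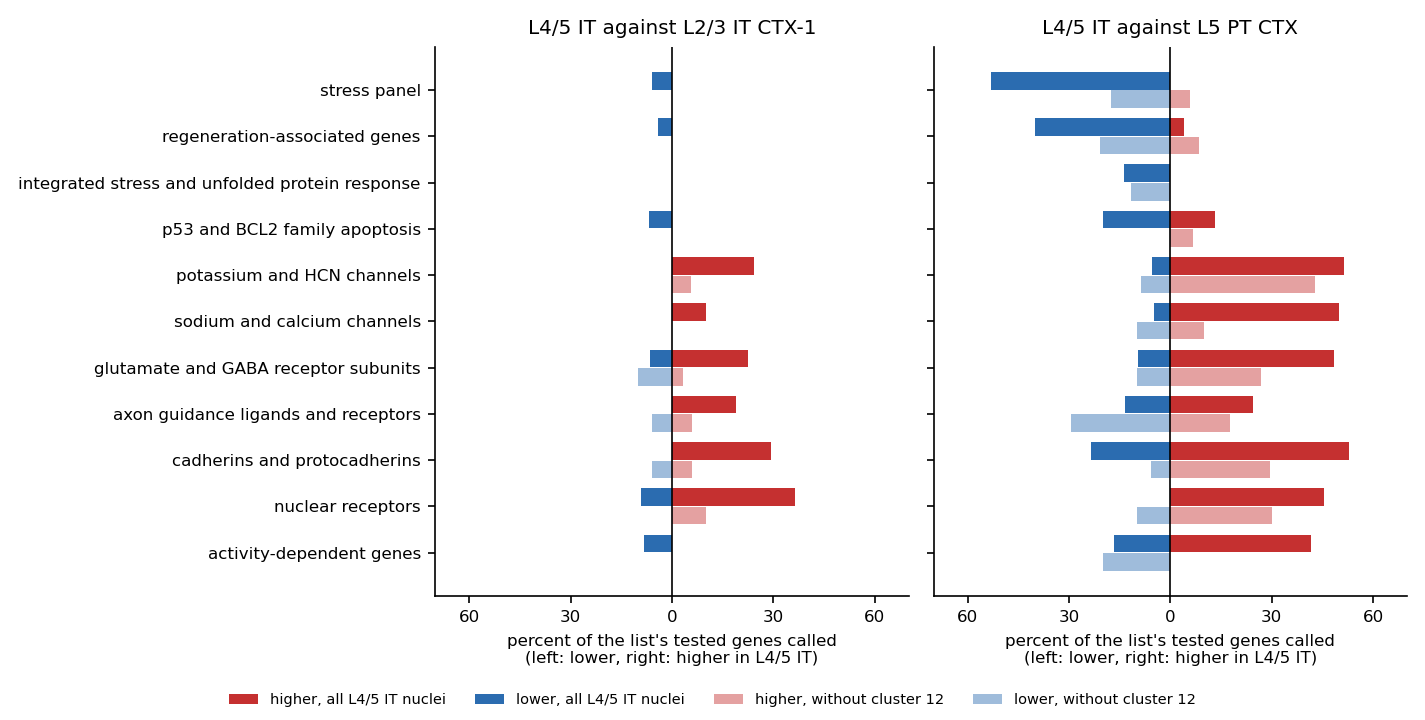
Percent of each gene list's tested genes called higher or lower in L4/5 IT nuclei, against L2/3 IT CTX-1 and against L5 PT CTX nuclei. Full bars give all L4/5 IT nuclei and faint bars those without cluster 12. Against L5 PT CTX nuclei the potassium and HCN channel list had 19 of 37 genes higher, against 9.87% of all genes, and the stress panel had 9 of 17 lower, against 7.17%.

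Beyond the lists, the genes with the largest differences were of several kinds. Chrm2, the muscarinic acetylcholine receptor M2, was at 61.9 and 70.4 CPM in L4/5 IT nuclei, 5.42 and 0.454 CPM in L2/3 IT CTX-1 nuclei and 2.45 and 2.02 CPM in L5 PT CTX nuclei. Its log2 differences were 4.63 ± 0.76 (adjusted p = 0.000368) and 4.85 ± 0.76 (adjusted p = 4.09e-05), and 3.93 and 4.17 without cluster 12, both still called. The difference of Chrm2 from L2/3 IT CTX-1 was 3.47 in the male library alone and 6.27 in the female library alone. Gfra2, the receptor for neurturin, was at 77.4 and 103 CPM against 12.03 and 9.07 CPM and 0.612 and 3.76 CPM. Gfra2 was called in both comparisons with and without cluster 12, at 3.17 and 5.03 with all nuclei. Galntl6, of the family of enzymes that start mucin-type glycosylation, was at 731 and 676 CPM against 68.6 and 59.0 CPM in L2/3 IT CTX-1 nuclei, and Ncam2, a neural cell adhesion molecule, at 418 and 427 CPM against 36.7 and 39.5 CPM. Both had a log2 difference of 3.52 from L2/3 IT CTX-1 and kept the call without cluster 12 (2.16 and 2.13).

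The genes C130073E24Rik and Lmo3 were also among the 10 largest differences from L2/3 IT CTX-1, but C130073E24Rik was at 1.93 CPM in male and 42.2 CPM in female L4/5 IT nuclei, and Lmo3, a LIM-domain transcriptional regulator, at 9.67 and 54.9 CPM. The female library decided both values: in the male library alone the log2 differences were 0.57 and 0.71.

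Of the genes lower than in L2/3 IT CTX-1 nuclei, Ltbp1, which binds latent TGF-β, was at 5.80 and 16.9 CPM against 117 and 94.3 CPM (log2 difference -3.03 ± 0.40, adjusted p = 3.16e-05). Glis3, a zinc-finger transcription factor, was at 23.2 and 12.7 CPM against 149 and 120 CPM (-2.88 ± 0.40, adjusted p = 5.52e-05). Both were called without cluster 12. Tnc, the matrix glycoprotein tenascin-C, had 1 UMI in all L4/5 IT nuclei, 38.1-fold lower than in L2/3 IT CTX-1 nuclei with a counting interval of 6.70 to 1516. Against L5 PT CTX nuclei, Clec3a, Crybg2 and Cdk15 had 0 UMIs in L4/5 IT nuclei of both libraries, which with a floor of 3 UMIs over both libraries were at least 11.7-fold, 12.1-fold and 8.68-fold lower. Tcerg1l was at 5.80 and 2.82 CPM against 339 and 368 CPM (-6.35 ± 0.48, adjusted p = 1.21e-09). Piezo2, a mechanosensitive channel, was at 7.74 and 1.41 CPM against 95.6 and 89.7 CPM (-4.40 ± 0.59, adjusted p = 6.40e-06). Among those higher than in L5 PT CTX nuclei, Car10, a carbonic anhydrase-related protein, was at 1151 and 1074 CPM against 28.2 and 25.2 CPM (5.41 ± 0.49, adjusted p = 1.05e-08) and Rmst, a long non-coding RNA, at 275 and 201 CPM against 10.4 and 5.78 CPM (4.97 ± 0.41, adjusted p = 2.11e-09). L2/3 IT CTX-1 nuclei held Car10 at 966 and 817 CPM, and the difference from them, 0.38 ± 0.40, was not called.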

How the data were processed

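The authors mapped the reads with CellRanger to the GRCm38 genome with introns counted and the reporter sequence added, and deposited raw UMI counts per gene and nucleus. The version of CellRanger differs between the sources, and the submitters' processing notes name 3.1.0. The deposited table of nuclei gives, per the file headers, the cluster, the subclass labels transferred from a reference atlas and the percent of mitochondrial UMIs, made with Seurat. The stated limits of 6000 genes and 5% mitochondrial UMIs had not been applied to all nuclei in the table. Doublets were not called here and no nucleus was left out.

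Raw UMIs were added up within each library and subclass, for the 11 neuronal subclasses with at least 20 nuclei, giving 22 sums, and fitted with edgeR 4.0.16 (R 4.3.3), with TMM factors, its filter on low counts (8218 genes left of 31053) and the quasi-likelihood test. P-values were adjusted by the Benjamini-Hochberg method over all genes tested, with a threshold of 0.05. Each SE of a log2 difference is approximate, taken as its absolute value over the square root of the F statistic of its test. DESeq2 1.42.0 was an alternative. Nuclei of a library are not replicates, so n = 2 throughout. CPM is per 1000000 UMIs of the summed nuclei, the confidence level is 95% (exact Clopper-Pearson), and depth gave the intervals stated. Scripts were tested on simulated data.

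All subclasses of a library come from 1 pool of animals, which pairs the sums, and the deviations of 55 pairs of subclasses from their means correlated at 0.0256 to 0.489 (median 0.128) over 8218 genes.

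Named genes were, in each comparison, the 10 called genes with the largest log2 difference in each direction, among those with the same direction in both libraries and at least 20 CPM in the higher group, then up to 4 called genes per list, the panels, the identity lists and Rorb. The members, lists and comparisons were chosen with earlier results of these data known. The alternatives by deposited cluster and by both labels were added after seeing the data, and genes shown by cluster were named after their values were seen. Gene IDs matched GENCODE for 30934 of 31053 genes. A few genes of the panels are counted but not reported by name here.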

Additional observations from a re-analysis of the deposited data

How the results depend on the processing

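With the library as a replicate block, which pairs sums of 1 pool, 674 genes were called against L2/3 IT CTX-1 and 1316 against the mean of both neighbours, and all 171 called results for named genes kept their call, while 16 of 94 uncalled ones passed the threshold. Against L2/3 IT CTX-1, L5 PT CTX and their mean, leaving out nuclei with 2 or more microglial marker UMIs, which left 53 male and 3 female L4/5 IT nuclei, gave 21, 101 and 55 calls, thinning to 2000 UMIs gave 131, 631 and 367, and leaving out cluster 12 gave 98, 797 and 358. These settings tested 3985, 3434 and 7430 genes in place of 8218. Against L2/3 IT CTX-1, nuclei with the L4/5 IT name in both labels gave 495 calls and cluster 3 alone gave 115. RLE factors, DESeq2, no filter on low counts, only the 3 subclasses, the limits on nuclei and summing both L2/3 IT subclasses stayed within 1.5 times of the reported counts.

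The share of L4/5 IT nuclei with a Rorb UMI went from 58.7% to 35.1% on thinning. That with an Atf3 UMI went from 16.4% to 8.74% on thinning, to 24.2% without nuclei with microglial UMIs and to 22% without cluster 12. In single libraries the Rorb share was 54 to 63.4% and the Atf3 share 13 to 19.7%. No test across genes was possible with 1 library, which leaves no residual degrees of freedom.

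Directions turned for 8 named results. With cluster 3 alone, against L2/3 IT CTX-1, Deptor was at -0.19, Lmo3 at -0.65 and Nr2f2 at -3.08. Without cluster 12, Esrrg was at -0.14 and Robo1 at -0.40 against L2/3 IT CTX-1, and mt-Atp6 at -0.25, mt-Nd1 at -0.49 and mt-Nd2 at -0.59 against L5 PT CTX. A further 61 of 159 called results were not called without cluster 12, and the cause was not tested. Male nuclei were shallower, with a median of 4479 UMIs, which limits low genes most.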

Other observations

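The genes that differed most between the L4/5 IT nuclei of cluster 12 and those of clusters 3 and 17 are given as values only, and those named here were chosen after their values were seen. Mitochondrially encoded genes were among the largest, with mt-Nd2 at 1045 and 494 CPM in cluster 12 against 62.2 and 56.3 CPM, and mt-Nd1, mt-Nd3 and mt-Nd4l higher as well. Slc6a5, a glycine transporter, was at 0 UMIs in cluster 12 of both libraries and at 87.0 and 93.9 CPM in clusters 3 and 17. Igf2bp2, an RNA-binding protein, was at 15.4 and 17.3 CPM in cluster 12 against 454 and 409 CPM, and Fyb2 was at 0 UMIs against 83.9 and 70.9 CPM. Col11a1, a fibrillar collagen chain, was at 30.7 and 173 CPM in cluster 12 against 0 and 2.09 CPM. Sgcd, a sarcoglycan subunit, was at 569 and 1152 CPM against 77.7 and 62.6 CPM, and Dgkb, a diacylglycerol kinase, at 251 and 524 CPM against 43.5 and 22.9 CPM. Each of the genes named differed in the same direction in both libraries.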
